A study of Danio rerio with 8 samples.

Results

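The libraries described here are 3 of 8 RNA-seq libraries from zebrafish embryos in which hemoglobin genes took at least 1% of all gene counts, set against the other 5. The 8 libraries comprise 4 from embryos exposed to 7,17-diHDPAn-3 (treated 5 to treated 8), a lipid mediator made from omega-3 docosapentaenoic acid with hydroxyl groups added, and 4 from control embryos (control 1 to control 4). For all of them the labels give embryo as the tissue and erythrocyte progenitors and erythrocytes as the cell type, and they state no strain, sort, dose, exposure time or age. Every library name carries the tag gata_1 and that of control 4 a further tag, which the labels do not explain, so a line or a gate common to all libraries cannot be told from them. The globin-rich set holds treated 5, control 1 and control 3. The globin-poor set holds treated 6, treated 7, treated 8, control 2 and control 4. The sets were chosen by a measured value, the sum over genes whose symbol starts with hba, hbb or hbe divided by the library total, so they are not groups of the study. The labels do not say whether separate clutches were used, and the p-values measure only the spread between these libraries, which may be technical.

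Hemoglobin in embryonic red cells is made of alpha-like and beta-like globin chains, each holding a heme. Heme is built from glycine and succinyl-CoA in a pathway that starts and ends in the mitochondrion, and in red cells the first step is carried out by the enzyme Alas2. Iron for heme enters the cell through the transferrin receptor, and the finished red cell is held in shape by a spectrin network tied to membrane proteins. The transcription factors Gata1, Klf1 and Tal1 switch on many of the genes of this program.

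The globin share was 1.34% in treated 5, 1.36% in control 1 and 1.37% in control 3, against 0.748% in treated 6, 0.595% in treated 7, 0.556% in treated 8, 0.736% in control 2 and 0.609% in control 4. Treated 5 lay nearest to the threshold from above and treated 6 from below, and no library lay between 0.748% and 1.34%. Of 16 globin genes in the table, 12 had a count in any library. A name that starts with the same letters, HBEGF, belongs to a growth factor, and its 2 genes were left out. Including them left every library in its set.

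The globin difference was spread over many chains. The 3 most counted globin genes, hbae3 and 2 genes both named HBE1 (ENSDARG00000115405 and ENSDARG00000087390), held 25.4%, 30.7% and 28.9% of all globin counts. hbae3, an embryonic alpha chain, had 3430, 3318 and 3392 CPM (counts scaled to a library total of 1e+06) in treated 5, control 1 and control 3, against 2039, 1468, 1439, 1916 and 1621 in treated 6, treated 7, treated 8, control 2 and control 4. Between sets the mean of these levels differed 1.99-fold for hbae3, 2.09-fold for the first HBE1 gene and 2.14-fold for the second. hbae1.1, another alpha chain, averaged 189 ± 10.1 CPM in globin-rich libraries and 88.8 ± 35.5 in globin-poor ones (SD, n = 3 and 5), a 2.13-fold difference. Its level of 150 in treated 7 stood above the other globin-poor libraries, and the sets did not overlap. Another HBE1 gene (ENSDARG00000113599) had the widest ratio, 3.25, and hbae1.2 the narrowest, 1.66. Genes with beta-type names held 70.23% to 72.14% of globin counts in globin-rich libraries and 67.42% to 69.98% in globin-poor libraries. The adult alpha gene hbaa1 had 3 counts in control 1 and none elsewhere. These values chose the sets and are given as a description, with no test. They are not corrected for gene length, and near-identical globin copies can share reads, so single chains are uncertain.

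**Figure D1:**
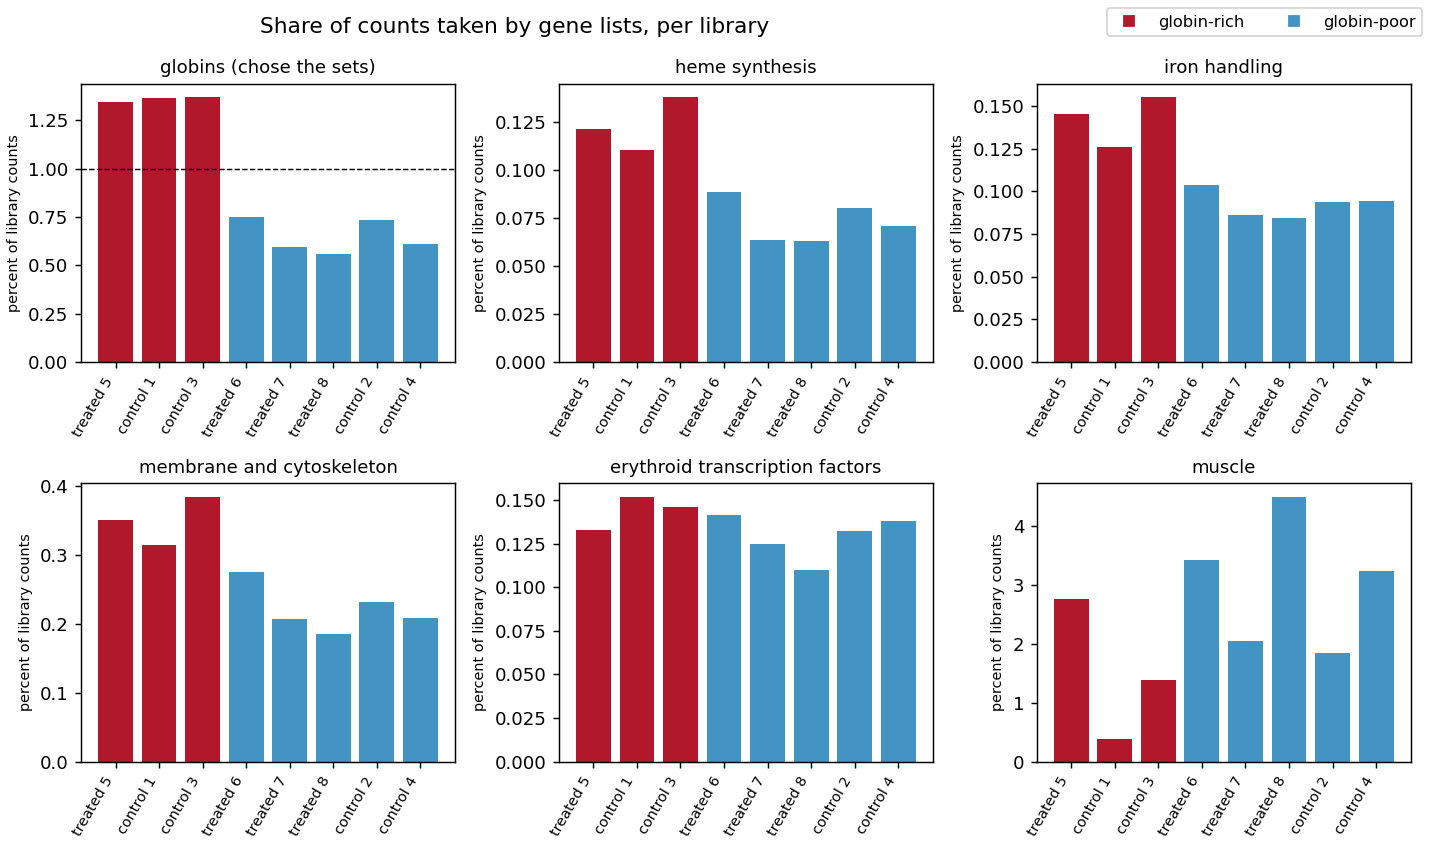
Percent of each library's counts taken by globins and by 5 gene lists, 1 bar per library, globin-rich libraries left and globin-poor libraries right. Globins, heme synthesis, iron handling and membrane genes took more of every globin-rich library than of any globin-poor library, while the erythroid transcription factor and muscle shares overlapped between sets.

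Depth overlapped between the sets. Total counts were 2502636 to 4794081 in globin-rich libraries and 3291181 to 4165470 in globin-poor ones, with a mean difference of -322714 (p = 0.571 by a two-sided exact permutation test whose smallest possible p is 0.0357, and 0.571 after adjustment for 5 measures). The 10 most counted genes took 34.6% ± 0.909 of counts in globin-rich libraries and 32.8% ± 1.15 in globin-poor ones (SD, n = 3 and 5, exact permutation p = 0.0714, adjusted p = 0.357). Treated 5, the shallowest library, stood apart on the first principal component of non-globin genes, at 87.2 against -20.0 to 0.06 in the other libraries. That component held 19.0% of the variance, and none of the first 3 separated the sets.

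With all globin genes removed from counts and totals, 15842 genes were compared between the sets with edgeR's quasi-likelihood F-test, treatment as a covariate and Benjamini-Hochberg adjustment. Values below are CPM of non-globin counts after TMM scaling, fold changes are globin-rich over globin-poor on the log2 scale with their standard error (SE), and a gene passed at an adjusted p of at most 0.05. In all, 13 genes passed, which is 0.0821% of those tested. Of these, 12 were higher in globin-rich libraries (0.0757%) and 1 was lower. Of the 12, 8 belonged to lists of red cell genes, and the other 4 did not. All 13 separated the sets without overlap, as did 423 genes (2.67%) whose levels lay higher in every globin-rich library and 319 (2.01%) whose levels lay lower. Red cell transcripts and globin transcripts come from the same RNA, so this comparison shows which genes went with the globin share. In whole-sample RNA fewer cells of a type and less RNA per cell cannot be told apart.

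**Figure D2:**
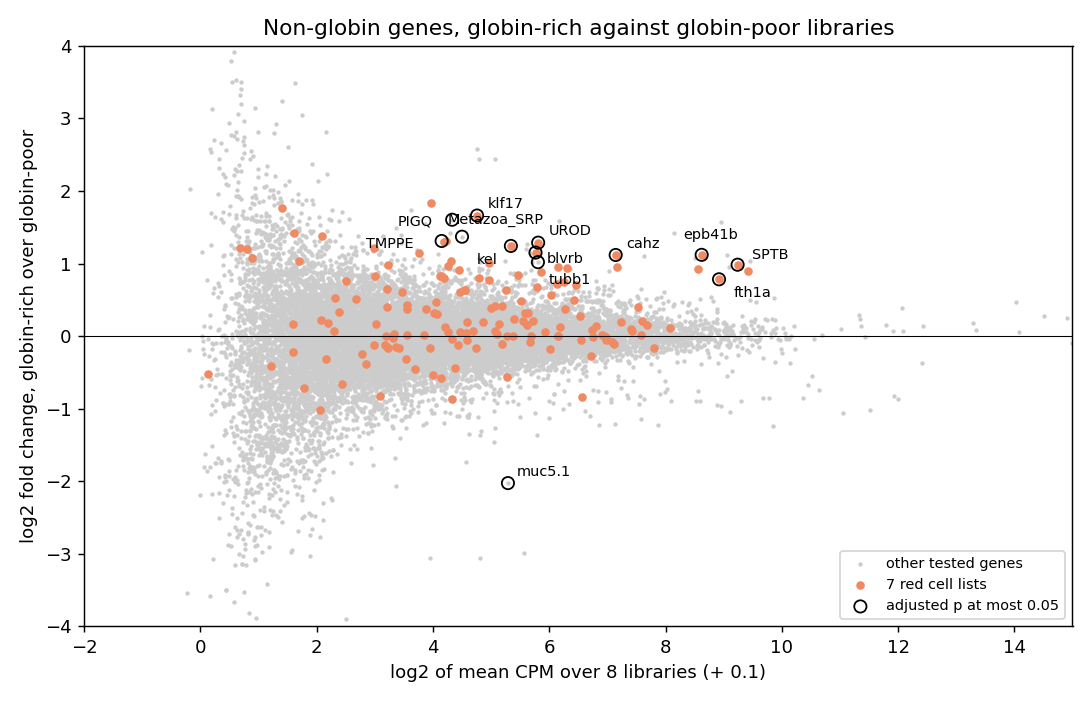
Log2 fold change of each tested gene, globin-rich over globin-poor, against the log2 of its mean CPM over the 8 libraries. Orange points are members of the 7 red cell lists and circles mark the 13 genes that passed, 12 of them above 0 and muc5.1 below. 44 genes lie outside the axes.

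Most heme synthesis genes had higher levels in globin-rich libraries. UROD, uroporphyrinogen decarboxylase (ENSDARG00000006818), had 109 CPM in treated 5, 66.0 in control 1 and 87.6 in control 3, against 48.3 in treated 6, 33.1 in treated 7, 33.8 in treated 8, 37.8 in control 2 and 32.5 in control 4. Every globin-rich library lay above every globin-poor one, a log2 fold change of 1.29 (SE 0.18, edgeR adjusted p = 0.00781). No other enzyme that builds heme, of those described here, passed.

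alas2, the red cell form of the first enzyme, had 536, 474 and 602 CPM in treated 5, control 1 and control 3, against 364, 233, 201, 330 and 266 CPM in treated 6, treated 7, treated 8, control 2 and control 4. The sets did not overlap, and the log2 fold change of 0.92 (SE 0.18) missed the threshold at an edgeR adjusted p of 0.0875. ALAS1, which encodes the form of this enzyme used by other cells, had 119, 121 and 128 CPM in the globin-rich libraries treated 5, control 1 and control 3. In the globin-poor libraries it had 98.4, 117, 115, 136 and 121 CPM in treated 6, treated 7, treated 8, control 2 and control 4. Its log2 fold change was 0.02 (SE 0.12), a value that lay on either side of 0 depending on the library left out and was -0.03 with scaling by total counts.

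Later enzymes were also above 0 in fold change. ALAD, which joins the first precursors, had a log2 fold change of 0.96 (SE 0.28). CPOX, coproporphyrinogen oxidase, stood at 1.29 (SE 0.26) and PPOX, protoporphyrinogen oxidase, at 1.01 (SE 0.25). FECH, ferrochelatase, which puts iron into the ring, stood at 0.72 (SE 0.16). None of these 4 genes passed (edgeR adjusted p from 0.0760 for CPOX to 0.41 for ALAD), though none overlapped between sets. uros, uroporphyrinogen III synthase, overlapped, at 0.37 (SE 0.30). Several of these enzymes were named after their values were seen.

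**Figure D3:**
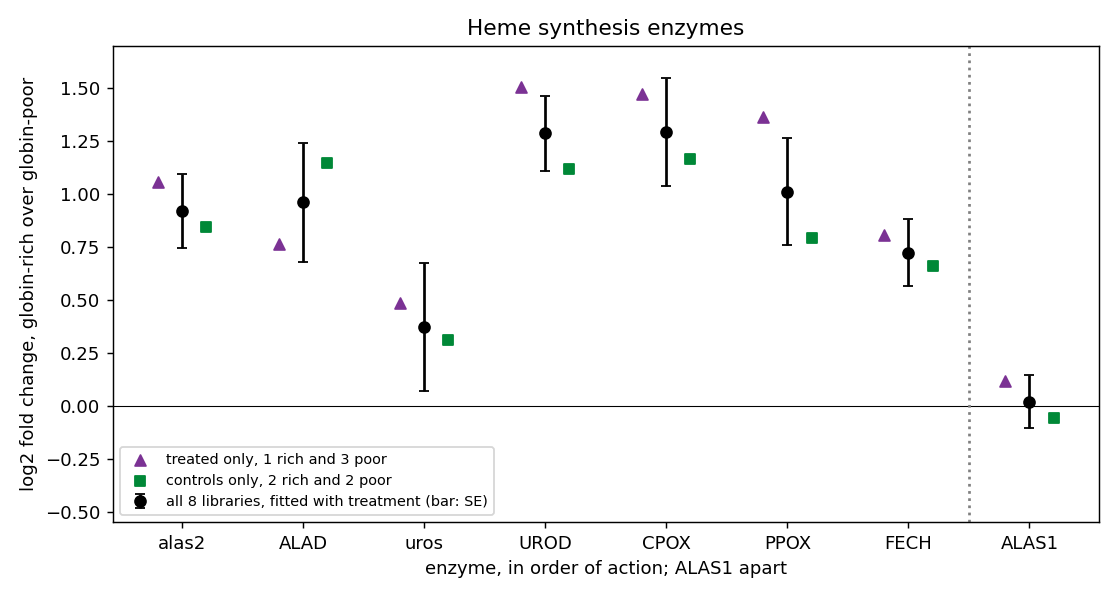
Log2 fold change, globin-rich over globin-poor, of 7 heme synthesis enzymes in order of action, with ALAS1 to the right of the dotted line. Black points are the fit over 8 libraries with bars of 1 SE. Triangles are the difference in mean log2 CPM among treated libraries alone, and squares a fit of control libraries alone. These 7 enzymes lie above 0 in both treatments, and ALAS1 lies at 0.02. All of the 7 but uros did not overlap between sets, so their place above 0 in each treatment was fixed in advance.

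Of 19 heme genes tested, 16 had a fold change above 0, against 47.6% of all tested genes, and 10 did not overlap between sets with globin-rich higher, against 2.67% of all tested genes. Their median log2 fold change was 0.83, against -0.02 for all tested genes. The median was 0.76 among treated libraries alone, with 1 globin-rich against 3 globin-poor, and 0.79 among controls alone, with 2 against 2. Here and below, values for treated libraries alone are differences in mean log2 CPM, and those for controls alone come from a fit. Since 10 of the 19 genes did not overlap, a median above 0 in each arm was fixed in advance and is no further support. blvrb, biliverdin reductase B, which acts on a breakdown product of heme (ENSDARG00000096829), was the second member to pass. It had 79.0, 66.2 and 107 CPM in treated 5, control 1 and control 3, against 41.2, 30.7, 27.5, 46.6 and 35.3 CPM in treated 6, treated 7, treated 8, control 2 and control 4, a log2 fold change of 1.15 (SE 0.20, edgeR adjusted p = 0.0403). HMOX1, heme oxygenase, which opens the heme ring, had a log2 fold change of -0.25.

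Iron genes showed the same order. fth1a, a ferritin heavy chain that stores iron (ENSDARG00000015551), had 686 CPM in treated 5, 586 in control 1 and 685 in control 3, against 419 in treated 6, 357 in treated 7, 384 in treated 8, 399 in control 2 and 357 in control 4. The log2 fold change was 0.78 (SE 0.11, edgeR adjusted p = 0.00781), and the spread within each set was small beside it. tfr1a, the transferrin receptor that brings iron into zebrafish red cells, had 235, 156 and 214 CPM in treated 5, control 1 and control 3, against 154, 104, 88.0, 94.7 and 104 CPM in treated 6, treated 7, treated 8, control 2 and control 4. Its log2 fold change was 0.95 (SE 0.17), it missed the threshold at an edgeR adjusted p of 0.0578, and control 1 lay only just above treated 6.

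Other steps of iron uptake lay on the same side without passing. slc11a2, which carries iron out of endosomes, had a log2 fold change of 0.91 (SE 0.22) and STEAP3, which reduces the iron there, 0.98 (SE 0.31). SLC25A37, mitoferrin, the carrier into mitochondria, stood at 0.74 (SE 0.18) and overlapped between sets through treated 6. fthl27, a further ferritin, stood at 0.70 (SE 0.14). Of 20 iron genes tested 17 were above 0 (47.6% of all tested genes were) and 5 did not overlap with globin-rich higher (2.67% of all tested genes). The median was 0.57, with 0.54 in treated and 0.64 in control libraries alone. SLC40A1, ferroportin, the iron exporter, had a log2 fold change of -0.12, and the second transferrin receptor gene, tfr1b, 0.32.

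Genes of the red cell membrane and its skeleton gave 3 of the genes that passed. SPTB, beta spectrin (ENSDARG00000030490), had 930, 716 and 949 CPM in treated 5, control 1 and control 3, against 554, 441, 392, 483 and 370 CPM in treated 6, treated 7, treated 8, control 2 and control 4, a log2 fold change of 0.98 (SE 0.14, edgeR adjusted p = 0.00781). epb41b, a protein 4.1 gene whose product joins spectrin to actin and the membrane (ENSDARG00000029019), had 640, 519 and 614 CPM in treated 5, control 1 and control 3, against 358, 268, 205, 302 and 243 CPM in treated 6, treated 7, treated 8, control 2 and control 4. Its log2 fold change was 1.12 (SE 0.16, edgeR adjusted p = 0.0111). Both genes split the sets cleanly, with treated 6 the highest of the globin-poor libraries.

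kel, which encodes the Kell blood group protein (ENSDARG00000076950), had 71.4, 42.1 and 77.9 CPM in treated 5, control 1 and control 3, against 27.4, 22.0, 22.1, 33.6 and 26.7 CPM in treated 6, treated 7, treated 8, control 2 and control 4 (log2 fold change 1.24, SE 0.22, edgeR adjusted p = 0.0468). SLC4A1, the band 3 anion exchanger (ENSDARG00000012881), had 943, 881 and 1068 CPM in treated 5, control 1 and control 3, against 716, 426, 389, 564 and 475 CPM in treated 6, treated 7, treated 8, control 2 and control 4. The sets did not overlap, and its log2 fold change of 0.90 (SE 0.18) had an edgeR adjusted p of 0.166. Another gene named SLC4A1 (ENSDARG00000024560) was also tested, and its set difference is not described here. Its treatment coefficient had an SE of 4.69. AQP1, a water channel of the red cell (ENSDARG00000023713), stood at 0.84 (SE 0.17), and RHAG, the Rh-associated glycoprotein, overlapped at 0.67 (SE 0.23).

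Some names held by 2 genes differed within this list. Of the 2 genes named SLC29A1, a nucleoside transporter, one had a log2 fold change of 0.88 (SE 0.18, ENSDARG00000054447) with no overlap between sets and the other 0.05 (SE 0.16, ENSDARG00000101289) with overlap. Of 2 genes named ANK1, the ankyrin that ties spectrin to band 3, one stood at 0.40 (SE 0.14, ENSDARG00000059093) and the other at -0.56 (SE 0.22, ENSDARG00000074777). No test of the difference between copies was made. Of 23 membrane and skeleton genes tested, 19 were above 0 and 9 did not overlap with globin-rich higher, against 47.6% and 2.67% of all tested genes, and the median log2 fold change was 0.63. That median was 0.37 without control 3. Of the 4 genes below 0, 2 had an unadjusted edgeR p at or under 0.05, as did 10 of those above 0. TMOD1, a skeleton gene of this list, had no count in the globin-rich libraries.

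**Figure D4:**
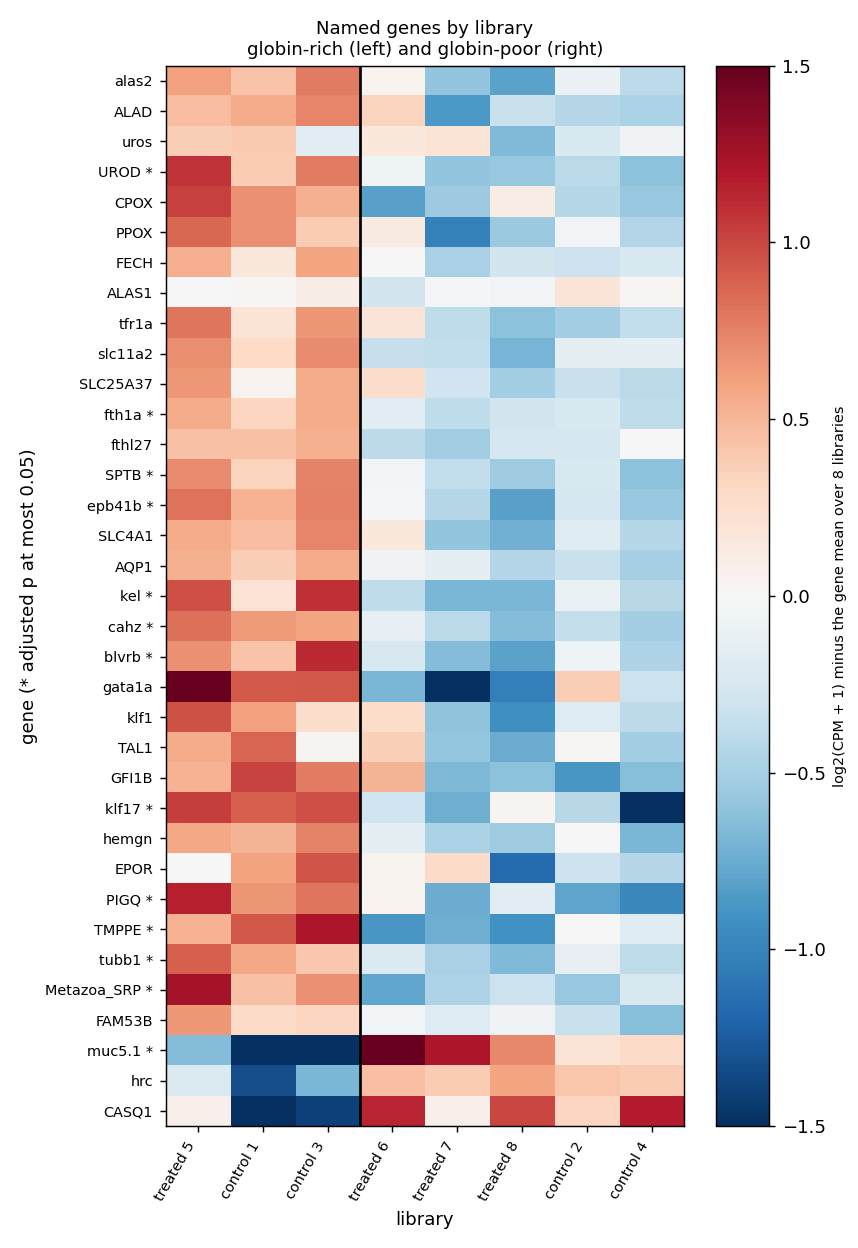
Level of named genes in each library as log2(CPM + 1) minus the gene's mean over the 8 libraries, globin-rich libraries left of the line and globin-poor libraries right of it, with an asterisk at genes that passed and colours that stop at 1.5 in either direction. Most red cell genes are above their mean in treated 5, control 1 and control 3 and mostly below it elsewhere, with uros below its mean in control 3. ALAS1 stays close to its mean, and muc5.1 and hrc run the other way. CASQ1 does so in control 1 and control 3, while in treated 5 it lies near its mean.

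Among red cell enzymes 2 genes passed. cahz, the carbonic anhydrase of zebrafish red cells (ENSDARG00000011166), had the smallest p of all genes. It had 232 CPM in treated 5, 204 in control 1 and 197 in control 3, against 120 in treated 6, 98.5 in treated 7, 82.8 in treated 8, 102 in control 2 and 91.7 in control 4, a log2 fold change of 1.12 (SE 0.13, edgeR adjusted p = 0.00364). HK1, hexokinase, stood at -0.06 and GSR, glutathione reductase, at 0.01. Of 26 enzyme genes tested 14 were above 0 and 12 below, from -0.87 to 1.43, and cahz and blvrb passed. Their median of 0.03 ranged from -0.02 to 0.15 over the alternatives run.

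Of the erythroid transcription factors, klf17, a zinc finger factor of the Krüppel-like family made in embryonic blood and hatching gland (ENSDARG00000038792), was the one to pass. It had 47.9, 43.2 and 45.4 CPM in treated 5, control 1 and control 3, against 18.3, 13.3, 23.4, 16.8 and 7.43 CPM in treated 6, treated 7, treated 8, control 2 and control 4, a log2 fold change of 1.66 (SE 0.27, edgeR adjusted p = 0.0325). gata1a, the leading erythroid factor, had 39.3 CPM in treated 5, 22.9 in control 1 and 23.0 in control 3, against 6.79 in treated 6, 2.41 in treated 7, 5.18 in treated 8, 15.3 in control 2 and 9.05 in control 4. The sets did not overlap, but the size of the difference was uneven (log2 fold change 1.84 in all, SE 0.40, edgeR adjusted p = 0.196). It was 3.0 among treated libraries alone, as a difference in mean log2 CPM, and 0.92 in a fit of controls alone. These are unlike measures, and the treated value rests on treated 5 as its only globin-rich library.

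hemgn, hemogen, a nuclear protein of blood precursors, lay just outside the threshold, with 100.0, 95.6 and 112 CPM in treated 5, control 1 and control 3, against 60.6, 47.6, 45.8, 66.5 and 41.1 CPM in treated 6, treated 7, treated 8, control 2 and control 4 (log2 fold change 0.96, SE 0.17, edgeR adjusted p = 0.0544). GFI1B, a repressor in red cell and platelet precursors, stood at 1.31 (SE 0.33), where treated 6 at 23.8 CPM nearly reached treated 5 at 23.9. klf1 stood at 1.03 (SE 0.28) and TAL1 at 0.80 (SE 0.29), and both overlapped between sets. LDB1, a cofactor of Gata1 and Tal1, stood at 0.01 for one of its genes and 0.20 for the other, and foxo3b, a forkhead factor, at -0.01. Of 28 factors tested, 17 were above 0 and 4 did not overlap with globin-rich higher, against 47.6% and 2.67% of all tested genes. Fold changes ran from -0.41 to 1.84, and the median of 0.07 ranged from 0.03 to 0.16 over the alternatives run.

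Erythropoietin signalling and maturation genes gave no gene that passed. EPOR, the erythropoietin receptor, had 16.7, 25.6 and 32.8 CPM in treated 5, control 1 and control 3, against 17.2, 20.5, 6.81, 13.2 and 12.1 CPM in treated 6, treated 7, treated 8, control 2 and control 4. Treated 5 lay below treated 6 and treated 7, and the log2 fold change of 0.80 (SE 0.34) had an edgeR adjusted p of 0.818. The kinase gene named JAK2 (ENSDARG00000018882), matched to the list entry jak2b, stood at 0.01. Its paralog jak2a is a separate gene of this list whose value is not described here. Of 16 signalling genes tested 10 were above 0 with a median of 0.01, against 47.6% of all tested genes above 0. Of 25 maturation genes 17 were above 0 with a median of 0.12, which was 0.06 without treated 5. The maturation genes ran from -1.01 to 0.63. Of them 3 did not overlap with globin-rich higher and 1 with globin-rich lower, against 2.67% and 2.01% of all tested genes. XPO7, a nuclear exporter used when red cell nuclei condense, stood at 0.50 (SE 0.14) without overlap. BNIP3L, which removes mitochondria, stood at 0.63 (SE 0.24) for the gene ENSDARG00000028067.

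Of all 7 red cell lists together, 153 genes were tested, 109 of them (71.2%) were above 0, against 47.6% of all tested genes, and 33 (21.6%) did not overlap with globin-rich higher, against 2.67% of all tested genes. Their median log2 fold change was 0.20, with 0.28 in treated libraries alone and 0.17 in controls alone. Part of such counts follows from the choice of sets, since red cell genes and globins are read from the same libraries, and the lists were chosen with this pattern known.

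**Figure D5:**
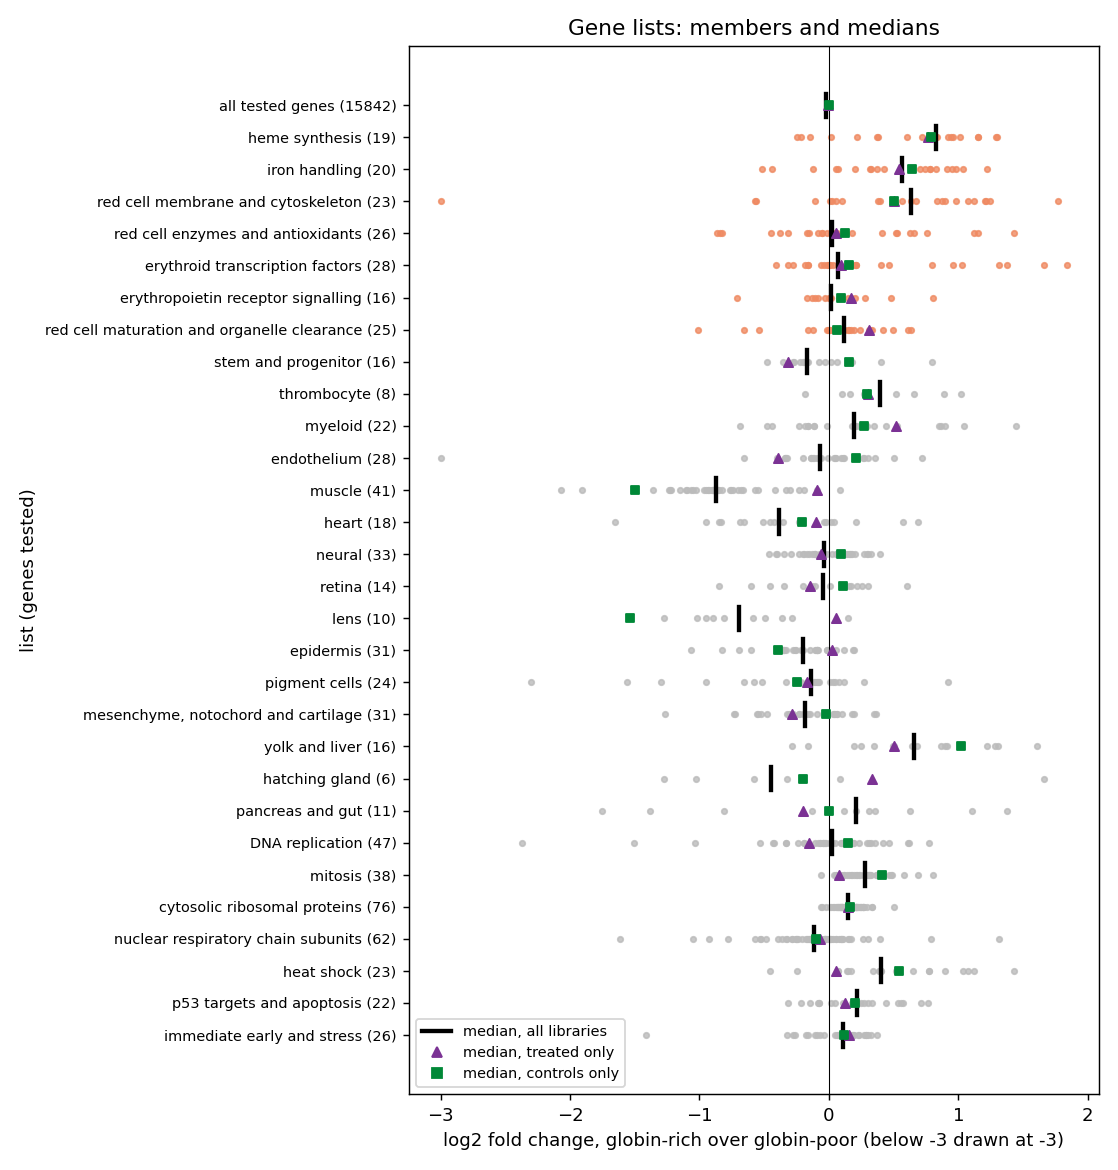
Log2 fold change, globin-rich over globin-poor, of each tested member of each list (points), with the median of the list as a black bar and the medians among treated (triangles) and control (squares) libraries alone. Heme synthesis, iron handling and membrane lists lie to the right in both treatments, and the muscle and lens medians lie near 0 in treated libraries. For heme synthesis the side was fixed in advance, since 10 of its 19 genes did not overlap between sets. The points drawn at -3 are TMOD1 and lyve1b, which had no count in the globin-rich set.

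The 4 other genes higher in globin-rich libraries were of other kinds. PIGQ, part of the enzyme that starts membrane anchors made of glycosylphosphatidylinositol (ENSDARG00000038097), had 40.2, 27.9 and 30.8 CPM in treated 5, control 1 and control 3, against 18.01, 9.94, 15.3, 9.57 and 8.36 CPM in treated 6, treated 7, treated 8, control 2 and control 4 (log2 fold change 1.6, SE 0.24, edgeR adjusted p = 0.0152). tubb1, a beta tubulin of platelets and thrombocytes (ENSDARG00000053066), had 97.4, 78.5 and 69.1 CPM in treated 5, control 1 and control 3, against 44.6, 36.8, 32.4, 47.9 and 39.7 CPM in treated 6, treated 7, treated 8, control 2 and control 4 (log2 fold change 1.02, SE 0.17, edgeR adjusted p = 0.0403). Neither gene overlapped between sets.

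TMPPE, named for a metallophosphoesterase domain (ENSDARG00000036059), had 22.2, 29.8 and 36.3 CPM in treated 5, control 1 and control 3, against 7.83, 8.74, 7.63, 15.3 and 13.2 CPM in treated 6, treated 7, treated 8, control 2 and control 4 (log2 fold change 1.31, SE 0.23, edgeR adjusted p = 0.0421). The level of TMPPE in controls was above that in treated libraries within each set. One of many genes named Metazoa_SRP, a signal recognition particle RNA (ENSDARG00000116452), had 48.7, 27.5 and 32.8 CPM in treated 5, control 1 and control 3, against 11.2, 14.2, 15.8, 13.2 and 16.7 CPM in treated 6, treated 7, treated 8, control 2 and control 4 (log2 fold change 1.37, SE 0.23, edgeR adjusted p = 0.0403). Copies of this RNA can share reads, so its count is uncertain. FAM53B, a nuclear protein gene, lay just outside the threshold at 0.78 (SE 0.14, edgeR adjusted p = 0.0595).

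muc5.1, a gel-forming mucin of mucus cells (ENSDARG00000070331), was the gene that fell. It had 17.9, 6.98 and 9.41 CPM in treated 5, control 1 and control 3, against 92.7, 68.1, 48.2, 33.4 and 35.3 CPM in treated 6, treated 7, treated 8, control 2 and control 4, a log2 fold change of -2.03 (SE 0.25, edgeR adjusted p = 0.00364). The sets did not overlap, and within each set the treated libraries were above the controls, a treatment coefficient of 1.06 (SE 0.22) that did not pass over all genes (edgeR adjusted p = 0.346). The difference of muc5.1 between sets no longer passed without the treatment covariate (edgeR adjusted p = 0.0972), with the globin share as a continuous term (0.193), without treated 5 (0.358) or among controls alone (0.273), and the log2 fold change ranged from -2.33 to -1.66 over the alternatives run. Epidermis markers as a list took 0.972%, 0.939% and 0.737% of counts in treated 5, control 1 and control 3, against 0.972%, 1.00%, 1.198%, 1.42% and 1.04% in treated 6, treated 7, treated 8, control 2 and control 4, and 25 of 31 were below 0. The part of the epidermis share in the muc5.1 difference was not tested.

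No other gene that was lower passed. hrc, a calcium-binding protein of the muscle reticulum, had 35.5, 15.9 and 25.3 CPM in treated 5, control 1 and control 3, against 56.9, 54.2, 62.9, 55.6 and 54.1 CPM in treated 6, treated 7, treated 8, control 2 and control 4 (log2 fold change -1.12, SE 0.21, edgeR adjusted p = 0.0595). The globin-poor libraries lay close together and the globin-rich ones below them. The 14 lower genes of smallest p that did not pass had log2 fold changes of -2.07 to -0.48 and edgeR adjusted p-values of 0.0595 to 0.375. CASQ1, calsequestrin, which stores calcium in fast muscle (ENSDARG00000018105), marked the low end with 8.12, 0.635 and 2.27 CPM in treated 5, control 1 and control 3, against 18.01, 8.13, 16.3, 9.83 and 18.6 CPM in treated 6, treated 7, treated 8, control 2 and control 4. Treated 5 and treated 7 were almost equal.

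Markers of other blood cells differed in part between the sets. Thrombocyte markers took 0.0127%, 0.0123% and 0.0122% of counts in treated 5, control 1 and control 3, against 0.0069% to 0.0082% in the globin-poor libraries. Of 8 tested, 7 were above 0, tubb1 among them. A large part of this share was tubb1 alone, which averaged 81.7 CPM in globin-rich and 40.3 CPM in globin-poor libraries, so the share says little of the other members. Myeloid markers took 0.0410% to 0.0472% in globin-rich and 0.0271% to 0.0389% in globin-poor libraries, without overlap. Of 22 tested, 12 were above 0 and 10 below. lyz, the lysozyme of myeloid cells, had a log2 fold change of 0.85 (SE 0.24) and MMP9, a protease of neutrophils, 1.04 (SE 0.26), both without overlap. On average lyz had 57.9 CPM in globin-rich and 31.9 in globin-poor libraries, and MMP9 46.9 and 21.2. apoeb, also in this list, had 65.7 and 37.3. A large part of the difference in share lay in these genes, so it says little of the other members. A gene named MPEG1, a macrophage marker, stood at -0.12. Other genes of this list share that name and are not described here. Stem and progenitor genes overlapped in share, and 5 of 16 were above 0 with a median of -0.17, which was 0.16 without treated 5 and lay on either side of 0, at -0.31 in treated and 0.16 in control libraries alone. None of the myeloid or progenitor genes passed.

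The samples also held tissue outside the blood, and muscle was the most uneven of it. Muscle genes took 2.77% of counts in treated 5, 0.377% in control 1 and 1.39% in control 3, against 3.42%, 2.05%, 4.50%, 1.85% and 3.24% in treated 6, treated 7, treated 8, control 2 and control 4. Of 41 tested, 40 were below 0, none passed, and the median of -0.87 was -0.09 among treated libraries alone and -1.49 among controls alone. Without treated 5 it was -1.49, and without control 1 -0.47. The lens list ran the same way, with 9 of 10 below 0 and medians of 0.05 in treated and -1.54 in control libraries. Shares of a library sum to a whole, so they are not independent. The muscle shares are those of the listed genes, not of all muscle RNA. The part of muscle in the globin and red cell differences was not tested. Among treated libraries alone, with 1 globin-rich library, the heme synthesis median was 0.76 and the muscle median -0.09. Among controls alone these medians were 0.79 and -1.49. A heme median above 0 was fixed in advance in each arm by genes that did not overlap. These pairs of medians therefore decide nothing about muscle.

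None of the mitosis, ribosomal protein, heat shock or DNA replication genes passed. Of 38 mitosis genes 37 were above 0 with a median of 0.28, which was 0.08 in treated and 0.41 in control libraries alone, and 0.17 without control 3 or control 4. nuf2, a kinetochore protein, stood at 0.69 (SE 0.19), and plk1, a mitotic kinase, at 0.49 (SE 0.15). Cytosolic ribosomal protein genes were above 0 for 73 of 76 with a median of 0.15, which was 0.07 without control 4. Of 23 heat shock genes 21 were above 0 with a median of 0.40, which was 0.05 in treated and 0.54 in control libraries alone and 0.26 without control 1. HSPA5, a chaperone of the endoplasmic reticulum, stood at 0.52 (SE 0.15). Of 47 DNA replication genes 27 were above 0, with a median of 0.03, which was -0.16 in treated and 0.15 in control libraries alone.

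The globin sets cut across the exposure, so the exposure was also compared with the set as a covariate. The globin share was measured after the exposure, so holding the set fixed can take out an exposure effect on red cell content. For red cell genes the values with the covariate are therefore not a better measure of the exposure effect. No gene passed between treated and control libraries among 15842 tested (edgeR, smallest adjusted p = 0.234, with 1086 genes at or under an unadjusted 0.05), and none passed without the covariate among 14238 (edgeR, smallest adjusted p = 0.0742, with 989 genes at or under an unadjusted 0.05). With the covariate DESeq2 called 16 genes and limma-voom 3. For the 146 red cell genes tested both ways, the median log2 fold change of treated over control was 0.01 with the covariate, 77 above and 69 below 0. Without it the median was -0.12, with 49 above and 97 below 0. The median SE of these genes was 0.23 with the covariate and 0.28 without. Many red cell genes went with the globin share, so this smaller SE is no further support.

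Single red cell genes, some named here after their values were seen, had the following values. alas2 had a treated over control log2 fold change of -0.11 (SE 0.17) with the covariate and -0.32 (SE 0.40) without, and cahz 0.11 (SE 0.13) with and -0.16 (SE 0.43) without. epb41b stood at 0.08 (SE 0.15) with the covariate and -0.19 (SE 0.46) without. UROD stood at 0.27 (SE 0.18) with the covariate and -0.01 (SE 0.49) without, tfr1a at 0.26 (SE 0.17) with and 0.03 (SE 0.39) without, and klf17 at 0.41 (SE 0.27) with and -0.15 (SE 0.64) without. These 3 lay beyond 1 SE above 0 with the covariate, alas2, cahz and epb41b within 1 SE of 0, and the SE of each was smaller with the covariate. None of these genes overlapped between sets, so the set takes up much of their spread. Their smaller SE, and which of them lay beyond 1 SE, are thus no further support. gata1a had a treated over control value below 0 both ways, -0.42 (SE 0.41) with and -0.46 (SE 0.83) without.

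Whether the set difference depended on the exposure was tested as an interaction, and no gene passed among 17019 (edgeR, smallest adjusted p = 0.294, with 984 genes at or under an unadjusted 0.05). DESeq2 also called 0 genes there (smallest adjusted p = 0.0527, 689 genes at or under an unadjusted 0.05). The treated arm has 1 globin-rich library, treated 5, so this test rests on it. The 12 genes that rose in globin-rich libraries had log2 fold changes of 0.83 to 1.8 in treated libraries alone and 0.74 to 1.87 in controls alone. None of them overlapped between sets, so a value above 0 in each arm was fixed in advance and is no further support. Without treated 5 these 12 genes had log2 fold changes of 0.75 to 1.87 and none passed (edgeR adjusted p from 0.358 to 0.602), and without control 3 or control 4 in turn 1 of the 12 passed.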

How the data were processed

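RNA of 8 embryo libraries was sequenced, per the labels' protocols, from stranded low-input total RNA libraries as paired reads. The authors deposited whole-number counts per gene, not normalized. The submitters' processing notes list HISAT2 2.1.0, StringTie 1.3.3b, Trim Galore 0.5.0, CASAVA 1.8.2 and DESeq2 1.22.1, and the build GRCz11, without saying what each did. No source used here gives the strand setting or annotation release, so overlapping, antisense and near-identical genes are uncertain. Totals were 2502636 to 4794081 counts per library. The table has 32020 genes, 28975 with a symbol in the supplied name table, and 0 sample columns were left out. Pairs of libraries differed beyond sampling noise (chi-square over degrees of freedom 6.69 to 20.9).

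Libraries were split at a globin share of 1%. The 16 globin genes were then left out of counts, totals, TMM scaling, filterByExpr and test. edgeR 4.0.16 (R 4.3.3) fitted treatment and globin set with robust quasi-likelihood, at a biological coefficient of variation of 0.287. SE is the fold change divided by the square root of F. A second coefficient of this fit gave treatment, and a separate fit the interaction. The steps were checked on simulated counts. Of 50 genes simulated at 2-fold, edgeR called 18, DESeq2 18 and limma-voom 17. Of 15642 genes simulated without a change, edgeR called 8, DESeq2 23 and limma-voom 9. Alternatives were DESeq2 1.42.0, limma-voom (limma 3.58.1), other scalings and filters, the globin share as a continuous term, each treatment alone and each library left out. Controls alone were fitted again with edgeR. For treated libraries alone, with 1 globin-rich library, the value is a difference in mean log2 CPM without a fit, so the arms are unlike measures. Library measures used exact permutation over 56 assignments (scipy 1.17.1).

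The split, the members and the 29 gene lists were chosen with earlier results of these data known. Of 873 list entries 653 matched by symbol, 155 after removal of a paralog suffix and 65 not at all, and 1770 names belong to 2 or more genes. Apart from genes not reported here, genes are named by rule: the 15 of largest fold change per direction among those that passed, that average 5 CPM or more and have a proper symbol, filled by smallest p, up to 4 per list by smallest p, and alas2, SLC4A1, gata1a, klf1, TAL1, EPOR and GFI1B. Other list members named with a value (such as HMOX1, SLC40A1, tfr1b, HK1, GSR, LDB1, foxo3b, JAK2, MPEG1, the remaining heme enzymes, iron and membrane genes) were chosen after their values were seen. No sequences or coordinates are given, since no sequence table or annotation of the build was used here.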

Additional observations from a re-analysis of the deposited data

Results flagged for a closer look

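Some libraries stood far from the others of their group for a named value, by Dixon's test of the gap between the end value and its neighbour, which chance alone passes in about 1 of 20 groups. Of 303 groups of values examined, 13 did so, which is under 1 in 20, and no explanation was tested for any of them. Many of the genes were named because they differed between the globin sets, so the rate for chance does not hold for those.

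Treated 5 was the high end of the 4 treated libraries in 8 of these. It had 39.3 CPM of gata1a, against 2.41 to 6.79 CPM in the other treated libraries. kel stood at 71.4 CPM, against 22.0 to 27.4. TMPPE stood at 22.2 CPM, against 7.63 to 8.74, and Metazoa_SRP at 48.7 CPM, against 11.2 to 15.8. FAM53B stood at 93.1 CPM, against 51.2 to 57.4, and slc11a2 at 33.8 CPM, against 12.3 to 15.9. GP1BB, a platelet glycoprotein gene, stood at 10.7 CPM, against 2.72 to 3.31, and the thrombocyte share at 0.0127% of counts, against 0.0069% to 0.0077%. Treated 5 is the single globin-rich library of its arm, so for genes named as higher in globin-rich libraries these flags restate that choice.

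Treated 6, the globin-poor library of highest globin share, was the high end of the 5 globin-poor libraries in 3. It had 154 CPM of tfr1a, against 88.0 to 104 CPM in the other 4 libraries. SLC25A37 stood at 87.7 CPM, against 50.9 to 59.7, and GFI1B at 23.8 CPM, against 8.54 to 10.4.

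The remaining ones were the epidermis share of treated 8 at 1.198% of counts, against 0.972% to 1.00% in the other treated libraries, and COL11A1, a cartilage collagen gene, at 655 CPM in control 4, against 453 to 477 CPM in the other controls.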

How the results depend on the processing

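The 13 genes that passed between the sets kept their direction under each alternative run, but their number did not hold. Their levels did not overlap between sets in these same libraries, so the kept direction is no further support. It was 12 with RLE size factors, 13 with globin genes kept in totals, 8 with scaling by total counts, 26 among genes with a mean of at least 5 CPM, 25 without the treatment covariate and 23 with the globin share as a continuous term. muc5.1 was lost in both of these, at adjusted p 0.0972 and 0.193, and Metazoa_SRP in the second, at 0.0866. DESeq2 gave 49 and limma-voom 34, each including all 13. With no filter on low counts it was 243, with 122 higher and 121 lower, including all 13. Among controls alone it was 0, with 1044 genes at or under an unadjusted 0.05. Leaving out each library gave 0 to 17 genes: 0, 17, 4 and 8 without treated 5, 6, 7 and 8, and 12, 8, 2 and 2 without control 1, 2, 3 and 4. The cause of these moves was not tested, and the fits without a library also rest on fewer libraries.

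For treated against control with the globin set as covariate, the count of 0 was 16 with DESeq2, 3 with limma-voom, 202 with no filter and 0 to 1 with each library left out, the 1 being without treated 7. Of 66 named genes followed over the alternatives between the globin sets, 64 kept their direction. Many of them did not overlap between sets, so their kept direction is no further support. Other list members named with a value, such as HK1, GSR and foxo3b near 0, were not among the 66. ALAS1 was -0.026 with total count scaling, -0.056 among controls alone and -0.054 to 0.074 with each library left out. The SLC29A1 gene near 0 was -0.011 to 0.13 with each library left out.

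The heme synthesis median ranged from 0.63 to 0.96, iron handling from 0.42 to 0.71 and the membrane list from 0.37 to 0.73. The yolk and liver median of 0.66 was -0.55 without control 3. Depth limits genes of few counts, since 1 CPM is under 5 counts in each library.

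No paired analysis was possible because controls are numbered 1 to 4 and treated libraries 5 to 8, so no number is shared.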

Other observations

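Other lists lay as follows between globin-rich and globin-poor libraries, as log2 fold changes without a gene that passed unless named. Yolk and liver genes were above 0 for 14 of 16 tested, with a median of 0.66 that was 1.11 without control 1 and -0.55 without control 3, and control 3 held 0.0608% of counts in this list, against 0.0108% to 0.0218% in the other libraries. Of 28 endothelial genes 12 were above 0, with medians of -0.39 in treated libraries alone and 0.21 in controls alone. lyve1b, a marker of lymphatic vessels, had no count in the globin-rich libraries, and so did the red cell skeleton gene TMOD1, so no fold is given for either.

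Nerve genes were above 0 for 15 of 33 with a median of -0.04 (-0.08 to 0.09 over the alternatives run), and retina genes for 7 of 14 with a median of -0.05 (-0.21 to 0.11). Heart genes were above 0 for 5 of 18 with a median of -0.39, which was -0.16 without treated 5, -0.17 without treated 8, -0.83 without control 1, -0.13 without control 3 and -0.03 when control 4 was left out. Genes of pigment cells were above 0 for 7 of 24 with -0.14, which was -0.24 without treated 5 and -0.30 without control 1. Genes of mesenchyme, notochord and cartilage were above 0 for 10 of 31 with -0.19, which was -0.03 without treated 5, -0.10 without treated 8, -0.37 without control 1 and -0.08 without control 3. Pancreas and gut genes were above 0 for 7 of 11 with a median of 0.21, but it was 0.01 without treated 5, 0.08, 0.06 and 0.12 without controls 1, 2 and 4, -0.20 among treated libraries alone and 0.004 among controls alone. Hatching gland genes were above 0 for 2 of 6, one of them klf17, which passed and stands in this list too. Nuclear genes of the respiratory chain were above 0 for 19 of 62 with a median of -0.11, which was -0.03 without treated 8 and -0.07 without control 4. Genes of p53 and apoptosis were above 0 for 16 of 22 with a median of 0.21, which was 0.12 without control 1, and immediate early and stress genes for 16 of 26 with 0.11, which was 0.02, 0.19 and 0.01 without controls 1, 3 and 4.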
